A study of Mus musculus with 6 samples.

Results

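Camk4 and 9 other genes of the calcium, calcineurin and NFAT pathway (Camk2d, Camk1d, Ppp3ca, Ppp3cb, Nfatc1, Nfatc2, Nfatc3, Stim1 and Orai1) were followed in follicular B cells that are haploinsufficient for myosin IIa or lack both of its floxed alleles. The genes were taken by name from the authors' deposited table, where the 10 genes have 20 of the 25017 entries, under 10 of 20458 gene names. The set was chosen by its members' pooled levels in this same comparison, in which Camk4 stood out as higher, so these values are a description. The samples came from C57BL/6 mice, 3 of genotype CD23Cre+Myh9wt/fl (spelled CD23Cre+Myh9fl/wt in some labels) and 3 of genotype CD23Cre+Myh9fl/fl. All of them carry a Cre recombinase under the CD23 promoter, and a floxed Myh9 allele loses its exon between LoxP sites once CD23 is expressed. The wt/fl cells thus keep 1 intact Myh9 allele and are haploinsufficient, not wild-type, controls. RNA was taken from cells sorted as B220+ and CD23+, AA4.1- and CD21lo, with no stimulation named. The labels give no age, and the study's methods give an age range in weeks for mice used ex vivo, not an age for each sample.

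For every entry the authors' deposited table gives a single FPKM (fragments scaled to transcript length and library size) for each genotype, pooled over its 3 samples. No spread between mice or error can therefore be computed from these values, and no test was run on them. The authors' own test columns in the table were not used. Read depth per sample is unknown. Each entry covers the transcripts of a gene that share a coding sequence, and the FPKM of the entries was summed for each gene. Differences are given as the log2 ratio of fl/fl over wt/fl with 0.1 FPKM added to both values, which understates the difference of genes at low levels. A gene was compared where its mean over the genotypes was at least 0.5 FPKM, which held for 10600 genes. To count genes, a difference of 1.5-fold was used, with the 0.1 FPKM added to both values. The median log2 ratio of all compared genes was −0.00046. Myh9, the deleted gene, was at 50.6 FPKM in wt/fl cells and 21.1 FPKM in fl/fl cells, 41.7% of the haploinsufficient level. The B cell markers were abundant in both genotypes, with a summed level of 6420 FPKM in wt/fl cells and 6752 FPKM in fl/fl cells over 12 genes. Cd79b, a signalling chain of the B cell receptor, was at 1638 and 1739 FPKM, Cd79a, its partner, at 1098 and 1115 FPKM, and the tetraspanin gene Cd37 at 834 and 877 FPKM.

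Engagement of the B cell receptor activates phospholipase Cγ2, and the inositol trisphosphate it produces empties calcium from the endoplasmic reticulum. STIM proteins sense the empty store and open ORAI channels in the plasma membrane. Calcium bound to calmodulin then activates calcineurin, a phosphatase that lets NFAT factors enter the nucleus, and the calmodulin-dependent kinases. CaMKIV, the product of Camk4, is a largely nuclear member of this kinase family. It phosphorylates CREB and is best known from T cells and neurons.

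Camk4 was the only gene of the 10 that differed by at least 1.5-fold between the genotypes. Its level was 0.415 FPKM in wt/fl cells and 1.59 FPKM in fl/fl cells, a 3.83-fold higher value and a log2 ratio of 1.71. Without the added 0.1 FPKM the log2 ratio was 1.94, and with 1 FPKM added it was 0.87. Camk4 has a single entry, whose locus lies on chromosome 18 from 33098694 to 33355421. The build of this and the following gene positions is taken to be mm9. It was also the least abundant of the 10 genes in both genotypes. Of 10 genes compared, 1 was at least 1.5-fold higher in fl/fl, beside 2.18% of all compared genes. In the other direction, 0 of the 10 genes were at least 1.5-fold lower, beside 3.75% of all compared genes, and 5.93% of all compared genes were past 1.5-fold in either direction. Nothing is read from these counts, since the set was chosen in this same comparison.

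Ratios of this size occurred mainly among genes at low levels. The log2 ratio of Camk4 ranked 12 of 10600, and of the 11 genes above it 10 had a mean of 0.5 to 2 FPKM, like Camk4 itself with a mean of 1.00 FPKM. Among the 1471 genes in that range, 9.04% were at least 1.5-fold higher in fl/fl and 15.8% at least 1.5-fold lower, whereas 2.92% were at least 2-fold higher. Where the mean reached 10 FPKM the shares were 0.269% higher and 0.822% lower. Gene by gene, the spread of ratios therefore narrowed with level, and the other 9 genes, with means of 10.5 to 98.4 FPKM, lay where it was narrow. Because the samples were pooled, it cannot be said whether Camk4 was higher in each of the 3 fl/fl samples.

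**Figure D1:**
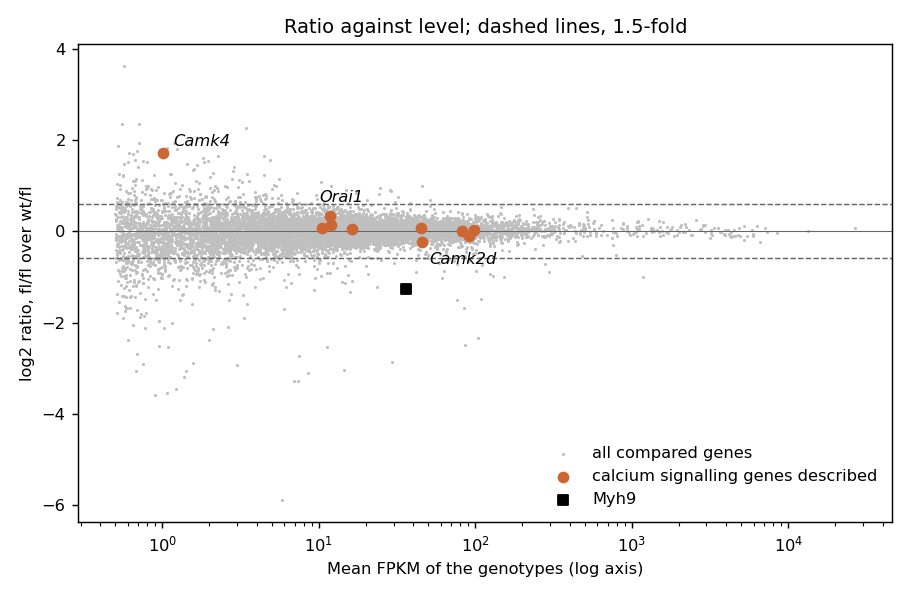
Log2 ratio of fl/fl over wt/fl (0.1 FPKM added) against the mean FPKM of the genotypes (log axis) for the 10600 compared genes in grey, the calcium signalling genes in orange and Myh9 as a black square. Camk4, at a mean of 1.00 FPKM and a log2 ratio of 1.71, lies above the dashed line at 1.5-fold, and the other 9 genes lie between −0.24 and 0.33.

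The genes most like Camk4 were sought among the 20457 other gene names by the distance between their log2 values (0.1 FPKM added) in the 2 genotypes. With only 2 values for each gene, such likeness says little. The nearest was Bcl2l15, a BCL-2 family gene, at 0.411 FPKM in wt/fl cells and 1.53 FPKM in fl/fl cells, followed by Cox7a1, a cytochrome c oxidase subunit gene, at 0.410 and 1.72 FPKM. Hemgn, a hematopoietic nuclear protein gene, was at 0.437 and 1.95 FPKM, the doublecortin domain gene Dcdc2b at 0.487 and 1.28 FPKM, and the proprotein convertase gene Pcsk4 at 0.369 and 1.23 FPKM.

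T cells express Camk4, so T cell markers were examined beside it. Of 19 markers, 15 reached a mean of 0.5 FPKM, of which 4 were higher and 11 lower in fl/fl, with a median log2 ratio of −0.18. Of the 15, 1 was at least 1.5-fold higher and 1 at least 1.5-fold lower, beside 2.18% and 3.75% of all compared genes. Their summed level was 223 FPKM in wt/fl cells and 209 FPKM in fl/fl cells, most of it Cd2 (188 and 176 FPKM), which B cells also express. Without Cd2 and the kinase gene Lck (14.5 FPKM in both), the other 17 markers summed to 20.5 and 18.6 FPKM. Lck was equal only as a sum, since its entry of highest mean FPKM alone had a log2 ratio of −0.68. Cd3d was at 3.02 FPKM in wt/fl cells and 2.31 FPKM in fl/fl cells, and Cd3e at 1.83 and 1.96 FPKM, so CD3 chains of the T cell receptor complex were present at low levels in both genotypes. Cd3g was at 1.96 and 1.26 FPKM, at least 1.5-fold lower. The adaptor gene Lat was at 2.86 and 2.54 FPKM. Trat1 was listed at 0 in wt/fl cells and at 0.236 FPKM in fl/fl cells, under the minimum for comparison. The part of T cells in the level of Camk4 was not tested, and in pooled bulk samples a different number of cells of a type and a different amount of RNA per cell cannot be told apart.

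Other calmodulin-dependent kinases were far more abundant than Camk4. Camk2d, which encodes the δ subunit of CaMKII, was at 49.1 FPKM in wt/fl cells and 41.7 FPKM in fl/fl cells, with a log2 ratio of −0.24, the lowest of the 10 genes. Camk1d, the gene of CaMKIδ on chromosome 2 from 5214502 to 5635710, was at 16.0 and 16.6 FPKM, a log2 ratio of 0.05. Summed over the 9 kinase genes of the CaMKI, CaMKII and CaMKIV groups, the level was 72.6 FPKM in wt/fl cells and 67.0 FPKM in fl/fl cells. Camk2d made up 67.7% and 62.3% of this sum, Camk1d 22.0% and 24.8%, and Camk4 0.572% and 2.37%. The transcripts of this family were therefore mostly Camk2d and Camk1d in both genotypes, and the higher Camk4 value of fl/fl was a difference of 1.17 FPKM. The calmodulin gene Calm2 was at 235 and 260 FPKM, a log2 ratio of 0.15. Of the kinases that act upstream of CaMKI and CaMKIV, Camkk2 was at 4.87 and 4.30 FPKM. Camkk1, at 0.927 and 0.539 FPKM, was at least 1.5-fold lower, and both were named after their values were seen. Of the 18 genes listed as calmodulins and calmodulin-dependent kinases, 11 were compared, with a median log2 ratio of 0.03. Camk4 was at least 1.5-fold higher and Camkk1 at least 1.5-fold lower, beside 2.18% and 3.75% of all compared genes.

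Camk2d has 3 entries, on chromosome 3 from 126299890 to 126547972, and the lower sum did not come evenly from them. The entry of highest mean was at 24.9 FPKM in wt/fl cells and 19.6 FPKM in fl/fl cells, and the next at 19.4 and 19.7 FPKM. The least abundant was at 4.79 and 2.41 FPKM, a log2 ratio of −0.96. Of the 20 entries of the 10 genes, 19 reached a mean of 0.5 FPKM. Among these, this Camk2d entry was the 1 that was at least 1.5-fold lower, and Camk4 the 1 that was at least 1.5-fold higher, beside 6.86% and 5.27% of all compared entries. The division of reads among entries that share most of their sequence is an estimate, so single entries are less certain than sums.

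**Figure D2:**
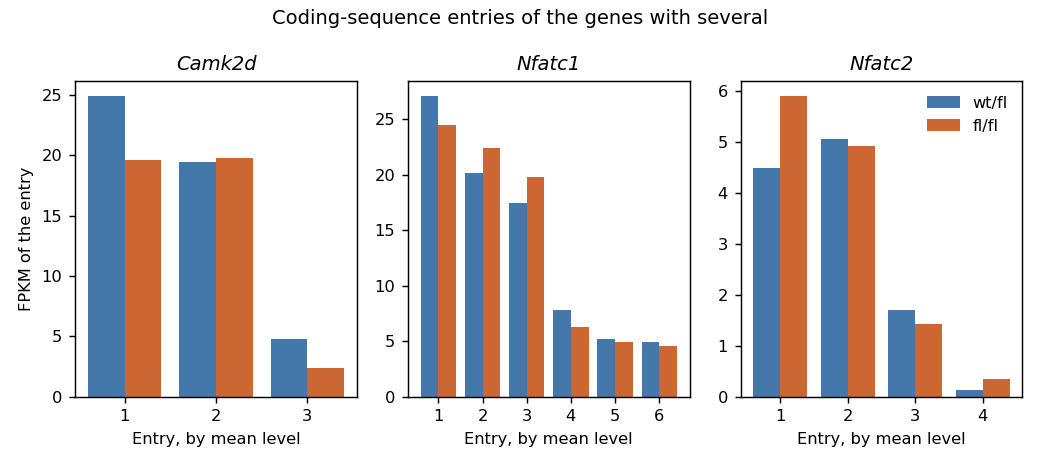
FPKM of each coding-sequence entry of Camk2d (3 entries), Nfatc1 (6) and Nfatc2 (4), ordered by mean level, with wt/fl in blue and fl/fl in orange and linear axes from 0. The values of the genotypes lie close together in most entries, and the third Camk2d entry (4.79 and 2.41 FPKM) has the lowest ratio among those whose mean reached 0.5 FPKM.

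Calcineurin transcripts were at nearly the same level in both genotypes. Ppp3ca and Ppp3cb encode the α and β isoforms of the catalytic subunit. Ppp3ca, on chromosome 3 from 136333733 to 136598743, was the most abundant of the 10 genes at 97.4 FPKM in wt/fl cells and 99.4 FPKM in fl/fl cells, with a log2 ratio of 0.03. Ppp3cb, on chromosome 14 from 21318535 to 21437576, was at 43.6 and 45.7 FPKM, a log2 ratio of 0.07. The γ isoform gene Ppp3cc was at 74.5 and 78.0 FPKM, and the regulatory subunit gene Ppp3r1 at 23.6 and 25.3 FPKM. All 4 compared genes of this list of 5 were slightly higher in fl/fl, by log2 ratios of 0.03 to 0.10. Of them, 0 reached 1.5-fold, beside 5.93% of all compared genes past it in either direction. The isoforms kept their proportions, with Ppp3ca at 45.2% and 44.6%, Ppp3cb at 20.2% and 20.5% and Ppp3cc at 34.6% and 34.9% of the catalytic subunit transcripts. Among the genes that bind or restrain calcineurin, 7 of 11 listed were compared. Of these, 0 reached 1.5-fold in either direction, beside the same 5.93%, and the median log2 ratio was −0.12. Homer3, at 0.826 and 0.542 FPKM and named outside the rule, was past 1.5-fold only without the added 0.1 FPKM. Fkbp1a, the FKBP12 gene, was at 39.8 and 42.2 FPKM, the calcineurin B homologue gene Chp1 at 33.4 and 30.7 FPKM and the calcineurin inhibitor gene Cabin1 at 14.6 and 14.7 FPKM.

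Of the NFAT factors, which calcineurin dephosphorylates, Nfatc3 and Nfatc1 were the most abundant. Nfatc3, on chromosome 8 from 108583502 to 108654437, was at 93.8 FPKM in wt/fl cells and 87.2 FPKM in fl/fl cells, with a log2 ratio of −0.11. Nfatc1, whose transcription NFAT itself can drive, was at 82.7 and 82.4 FPKM, a log2 ratio of −0.01. Nfatc2 was at 11.4 and 12.6 FPKM, a log2 ratio of 0.14. Nfat5, a related factor that does not need calcineurin, was at 35.5 and 33.0 FPKM. The family summed to 224 FPKM in wt/fl cells and 215 FPKM in fl/fl cells, of which Nfatc3 held 42.0% and 40.5%, Nfatc1 37.0% and 38.3% and Nfatc2 5.09% and 5.84%. Nfatc4, the remaining member, was at 0.129 and 0.206 FPKM and was not compared. Thus 4 of 5 NFAT genes were compared, with 0 past 1.5-fold, beside 5.93% of all compared genes, and a median log2 ratio of −0.05.

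The 6 entries of Nfatc1, on chromosome 18 from 80802943 to 80909810, had log2 ratios from −0.32 to 0.18. The most abundant was at 27.1 FPKM in wt/fl cells and 24.5 FPKM in fl/fl cells, the next at 20.2 and 22.4 FPKM and the third at 17.4 and 19.8 FPKM, so small differences in opposite directions cancelled in the sum. In Nfatc2, on chromosome 2 from 168301909 to 168427155, the order of the leading entries differed between the genotypes. One was at 4.49 FPKM in wt/fl cells and 5.89 FPKM in fl/fl cells, and the other at 5.05 and 4.90 FPKM. With the entry of highest mean in place of the sum, the log2 ratio of Nfatc2 was 0.38, still short of 1.5-fold.

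Calcium entry is served by Stim1, which encodes a sensor of the endoplasmic reticulum store, and Orai1, which encodes the channel it opens. Stim1, on chromosome 7 from 109416337 to 109585369, was at 10.2 FPKM in wt/fl cells and 10.8 FPKM in fl/fl cells, with a log2 ratio of 0.08. Orai1, on chromosome 5 from 123465082 to 123480461, was at 10.5 and 13.2 FPKM, 25.9% higher in fl/fl with a log2 ratio of 0.33. This was the highest ratio of the 10 genes after that of Camk4, and it was under 1.5-fold. Orai2 was at 14.2 and 16.4 FPKM, whereas Orai3, the most abundant of the 3 channel genes, was at 29.1 and 26.0 FPKM. The summed level of the channel genes was thus 53.8 and 55.6 FPKM, of which Orai1 held 19.4% and 23.7%. In the list of 10 genes for calcium entry, 9 were compared and the median log2 ratio was 0.03. Of these, 0 reached 1.5-fold, beside 5.93% of all compared genes past it in either direction. Efcab4a, at 0.449 and 0.684 FPKM and named outside the rule, was past 1.5-fold only without the added 0.1 FPKM.

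**Figure D3:**
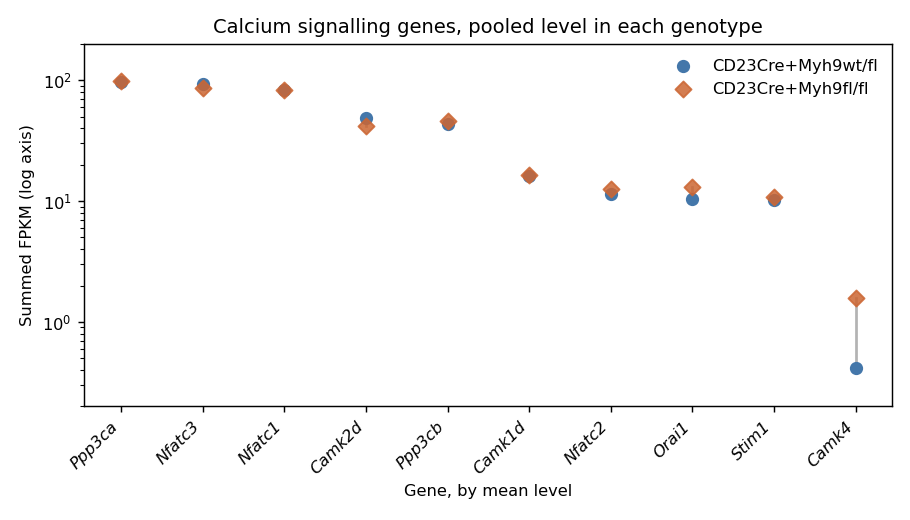
Summed FPKM of the 10 genes in CD23Cre+Myh9wt/fl (blue circles) and CD23Cre+Myh9fl/fl cells (orange diamonds) on a log axis, ordered by mean level, each point being 1 pooled value. The pairs lie close together except for Camk4, at 0.415 and 1.59 FPKM.

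Levels of the 10 genes, which FPKM puts on a scale per length, ran from Ppp3ca (mean of the genotypes 98.4 FPKM) through Nfatc3 (90.5), Nfatc1 (82.6), Camk2d (45.4), Ppp3cb (44.7), Camk1d (16.3), Nfatc2 (12.0), Orai1 (11.8) and Stim1 (10.5) to Camk4 (1.00). The ranks were the same in both genotypes except that Camk2d and Ppp3cb changed places, as did Nfatc2 and Orai1. Without a spread between samples, neighbours in this order cannot be said to differ. For the 10 genes the median log2 ratio was 0.06, and for the 9 other than Camk4 0.05 with a range of −0.24 to 0.33. Together these 9 summed to 415 FPKM in wt/fl cells and 410 FPKM in fl/fl cells.

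The rest of the pathway was described with lists of genes by role. Of 99 listed genes other than the 10, 96 are in the authors' deposited table and 75 were compared. Of these, 1 (1.33%) was at least 1.5-fold higher in fl/fl and 4 (5.33%) at least 1.5-fold lower, beside 2.18% and 3.75% of all compared genes. The median log2 ratio was −0.04. The gene that was higher was Tnf, and those that were lower were Crem, Ccl3, Ccl4 and Camkk1, of which Ccl4 and Camkk1 were named after their values were seen.

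Genes for store release, calcium pumps and the receptor-proximal steps that start the signal showed small differences. Of 20 listed, 16 were compared, and the log2 ratios ran from −0.17 to 0.20. Of the 16, 0 reached 1.5-fold, beside 5.93% of all compared genes past it in either direction. The adaptor gene Blnk was at 176 FPKM in wt/fl cells and 170 FPKM in fl/fl cells, Cd38, whose product makes the calcium-mobilizing messenger cyclic ADP-ribose, at 155 and 138 FPKM, and the kinase gene Btk at 76.4 and 75.8 FPKM. Plcg2, the phospholipase Cγ2 gene, was at 72.1 and 77.9 FPKM and was named outside the rule. Of 10 genes for kinases that return NFAT to the cytoplasm and for its cytoplasmic retention, 8 were compared. Of these, 0 reached 1.5-fold, beside the same 5.93% of all compared genes, and the median log2 ratio was −0.09. Lrrk2 was at 85.0 and 79.0 FPKM, Csnk1a1, a casein kinase gene, at 64.9 and 62.0 FPKM and the kinase gene Dyrk1a at 36.9 and 41.0 FPKM.

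Among 17 genes for substrates and partners of CaMKIV, all were compared, and Crem was the 1 that reached 1.5-fold, beside 5.93% of all compared genes. Crem encodes a relative of CREB and, from an internal promoter, a short repressor induced by cyclic AMP. It was at 14.8 FPKM in wt/fl cells and 7.74 FPKM in fl/fl cells, with a log2 ratio of −0.92. Crem is split into 15 entries in the authors' deposited table. The most abundant was at 7.18 and 3.97 FPKM, and the next at 5.14 and 1.35 FPKM, so both leading entries were lower in fl/fl. The third, the only other entry whose mean reached 0.5 FPKM, was higher in fl/fl, at 0.825 and 1.04 FPKM. The other CREB family genes differed less, with Creb1 at 26.8 and 23.7 FPKM and Atf1 at 44.0 and 39.9 FPKM, both named outside the rule. The most abundant of the list were Mef2c, a transcription factor gene downstream of calcium signals, at 157 and 165 FPKM, and the coactivator genes Crebbp at 64.7 and 66.8 FPKM and Ep300 at 67.2 and 63.7 FPKM. The median log2 ratio of the list was −0.04.

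Genes known to be induced through NFAT differed in both directions. Of 15 listed, 11 were compared, 1 was at least 1.5-fold higher, 2 were at least 1.5-fold lower and the median log2 ratio was −0.01. These were 9.09% and 18.2% of the 11, beside 2.18% and 3.75% of all compared genes. Nothing is called particular to the list from these small counts. Tnf, a cytokine gene, was at 12.4 FPKM in wt/fl cells and 22.3 FPKM in fl/fl cells, with a log2 ratio of 0.85. The chemokine gene Ccl3 was at 1.74 and 0.325 FPKM, a log2 ratio of −2.11, and its neighbour Ccl4 at 0.845 and 0.251 FPKM. The most abundant genes of the list differed little, with Nfatc1 itself as above, Irf4 at 60.8 and 58.9 FPKM and Myc at 45.7 and 46.4 FPKM. Rcan1, an inhibitor of calcineurin that NFAT induces, was at 4.29 and 3.91 FPKM. The immediate-early factor genes Egr2 and Egr3 were at 2.72 and 3.54 FPKM and at 16.4 and 19.0 FPKM. Nr4a1, of the same list, went the other way, at 12.1 and 8.87 FPKM, a log2 ratio of −0.45. Rcan1, Egr2, Egr3 and Nr4a1 were named outside the rule. Il2 was listed at 0 in both genotypes.

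Neutrophil markers were lower in fl/fl in the same samples, and Ccl3 and Ccl4 are also expressed by myeloid cells. Of 14 neutrophil markers 10 were compared, all 10 were lower, 9 of them at least 1.5-fold, and the summed level of the list was 387 FPKM in wt/fl cells and 73.3 FPKM in fl/fl cells. S100a9 was at 175 and 34.5 FPKM. Mpo and Elane, at 0.0916 and 0.119 FPKM in wt/fl cells and listed at 0 in fl/fl cells, were under the minimum for comparison. Of 12 macrophage markers 8 were compared, 2 were higher and 6 lower, 2 of these at least 1.5-fold, with a summed level of 19.3 and 17.1 FPKM. All 3 compared erythroid markers, of 10 listed, were at least 1.5-fold lower, with a summed level of 55.5 and 7.65 FPKM. Of all compared genes, 3.75% were at least 1.5-fold lower. The part of these cells in the values of Ccl3, Ccl4, Tnf and Crem was not tested.

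**Figure D4:**
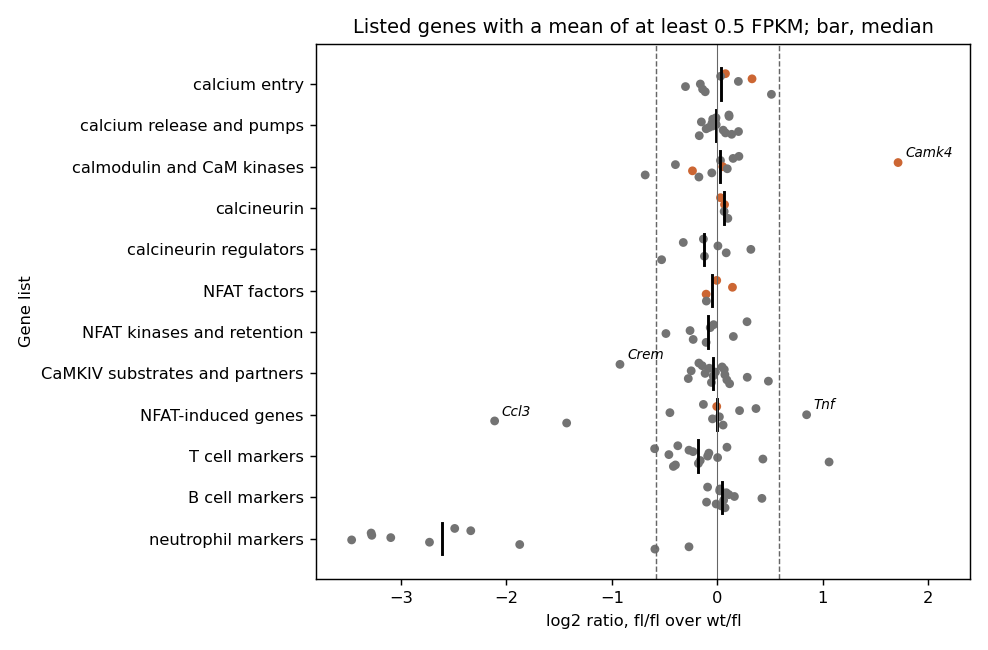
Log2 ratio of fl/fl over wt/fl (0.1 FPKM added) for the listed genes whose mean reached 0.5 FPKM, 1 point for each gene, with the 10 described genes in orange, a black bar at the median of each list and dashed lines at 1.5-fold. Most points of the calcium lists lie within 1.5-fold, whereas Camk4 (1.71) and Tnf (0.85) lie above and Crem (−0.92) and Ccl3 (−2.11) below it, and the neutrophil markers have a median of −2.61.

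The promoters of 3 NFAT-induced genes are printed to show the letters that NFAT and CREB proteins recognise in genes whose values lay in different directions, Tnf higher in fl/fl, Ccl3 lower and Rcan1 within 1.5-fold. The sequences are those of RefSeq on GRCm38.p6 and cover the 250 bases before the transcription start, 5′ to 3′ on the strand of the gene. Capitals mark the core motif of NFAT, GGAAA on either strand (TTTCC on the other), and in Rcan1 also the cyclic AMP response element TGACGTCA, which reads the same on both strands. Rcan1 has 2 starts in RefSeq. The 250 bases before the upstream start hold 0 matches to either motif, and the internal start, which holds both motifs, is shown (chr16:92400079-92400328, minus strand). Tnf (chr17:35202008-35202257) and Ccl3 (chr11:83649379-83649628) are also on the minus strand.
Rcan1: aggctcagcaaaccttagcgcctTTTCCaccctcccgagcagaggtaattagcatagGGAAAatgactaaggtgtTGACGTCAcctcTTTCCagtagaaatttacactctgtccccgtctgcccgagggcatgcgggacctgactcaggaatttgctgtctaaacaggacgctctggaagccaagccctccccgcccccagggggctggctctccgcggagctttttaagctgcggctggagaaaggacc
Tnf: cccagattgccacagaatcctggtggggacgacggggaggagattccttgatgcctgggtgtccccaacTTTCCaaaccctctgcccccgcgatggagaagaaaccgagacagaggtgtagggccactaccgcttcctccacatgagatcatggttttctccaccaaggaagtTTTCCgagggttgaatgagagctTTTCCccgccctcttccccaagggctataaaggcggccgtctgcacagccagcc
Ccl3: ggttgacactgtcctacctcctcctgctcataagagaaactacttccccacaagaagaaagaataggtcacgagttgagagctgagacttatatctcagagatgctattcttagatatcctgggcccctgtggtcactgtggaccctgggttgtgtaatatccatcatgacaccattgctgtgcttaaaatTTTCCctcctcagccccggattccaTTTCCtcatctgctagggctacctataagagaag

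The Rcan1 window held 3 matches to GGAAA and 1 to TGACGTCA, which begins 175 bases before the start. The Tnf window held 3 matches to GGAAA and the Ccl3 window 2, so the gene that was higher and the gene that was lower both carry the motif. The core motif is common. Of 32851 RefSeq windows of 300 bases (250 before and 50 after a start), 61.3% held GGAAA and 1.79% TGACGTCA on either strand. Of the 109 listed pathway genes, the 10 included, 80 had a window. Counted by gene, with a match in any of its windows, 61.3% of these held GGAAA, beside 64.5% of all compared genes with a window. The 80 include genes under the minimum of 0.5 FPKM, which the compared genes leave out. For either motif the shares are therefore over unlike sets. Of the 10 genes, 7 had a window, 5 with GGAAA and 0 with TGACGTCA. Camk4, Nfatc1 and Ppp3ca had no window, so neither motif was sought in them. The response element was in 2 of the 80 genes (2.5%), Rcan1 and the phosphatase gene Ppp2ca, beside 3.74% of all compared genes with a window.

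The log2 ratios of genes with these motifs were centred near 0, like those of all genes. Of 8031 compared genes with a window, 300 held TGACGTCA, with a median log2 ratio of −0.0078. In this group 1.00% were at least 1.5-fold higher and 1.67% at least 1.5-fold lower, beside 2.08% and 3.50% of all compared genes with a window. Among the 5178 genes with GGAAA, 2.30% were higher and 3.46% lower. The genes of these groups were not matched for level. A match is a description of letters and not evidence that a factor binds there.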

How the data were processed

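RNA of sorted follicular B cells was isolated with TriZol and column purification and amplified with the Ovation RNA-Seq system V2, and libraries were made with the TruSeq Nano DNA kit, per the labels. There were 3 samples of each genotype. The submitters' processing notes name Bowtie, TopHat and Cufflinks, with no versions, and the builds mm10 and GRCm38. The authors deposited 1 table in the layout of Cuffdiff, with FPKM pooled over the samples of each genotype, for which the labels HET and KO were read as wt/fl and fl/fl. It also holds the authors' own fold changes, test statistics, p-values and q-values, which were not used. Of 18856 gene names matched by symbol to RefSeq on GRCm38.p6, only 12.7% had a deposited position that overlaps the GRCm38 position, so the positions given are not on that build and are taken to be mm9.

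FPKM was summed per gene name, and log2((fl/fl + 0.1)/(wt/fl + 0.1)) was computed for genes whose mean reached 0.5 FPKM. These computations were tested on simulated data without noise, which checks the arithmetic and not how reliable the ratios are. With 1 pooled value for each genotype, no test, interval or outlier check was computed, and counts past 1.5-fold are read beside the shares of all compared genes. The 10 genes, the lists, the motifs and the printed promoters were chosen with earlier results of these data known. By rule, the text names the 10 genes, Myh9, the 3 most abundant genes of each list and any listed gene whose mean reached 1 FPKM past 1.5-fold. Other names, such as Plcg2, Creb1, Atf1, Ppp3r1, Nfatc4, Cd3d, Cd3e and Trat1, fall outside it, and some genes that it covers are not reported here. Python 3.11.15, numpy 2.4.6, pandas 2.3.3 and matplotlib 3.10.9 were used.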

Additional observations from a re-analysis of the deposited data

How the results depend on the processing

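The log2 ratio of Camk4, 1.71 with 0.1 FPKM added, was 1.94 with no pseudocount and 0.87 with a pseudocount of 1. A minimum mean of 5 FPKM leaves Camk4 out, so 0 of 9 genes were then at least 1.5-fold higher. Camk4 passes a minimum of 1 FPKM by its mean of 1.00 FPKM. The median of the 10 genes stayed between 0.05 and 0.06 under each alternative. Of the other pathway genes, the 1 that was at least 1.5-fold higher became 2 with no pseudocount and with the entry of highest mean FPKM, 4 with no filter on low values and 0 at 2-fold. The 4 that were lower became 5 with no pseudocount and with the entry of highest mean FPKM, 6 with no filter on low values, 2 with a pseudocount of 1, with a minimum mean of 1 FPKM and at 2-fold, and 1 with a minimum mean of 5 FPKM. With the entry of highest mean in place of the sum, Camk2d was at −0.35, Nfatc1 at −0.15 and Nfatc2 at 0.38, and the log2 ratios of the other 6 genes beside Camk4 were unaffected, since they have 1 entry. Scaling to the upper quartile moved the log2 ratios of 61 named genes by at most 0.0031, a pseudocount of 1 moved 19 of them by 0.1 or more, and 0 past 1.5-fold turned direction under the alternatives run for them.

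Depth and the spread between mice are unknown, which limits low genes such as Camk4 most. Leaving out a replicate was not run, and no paired analysis was possible because the authors' deposited table holds 1 pooled value for each genotype.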
